A study of Mus musculus with 9 samples.

Results

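The epidermal differentiation complex (EDC) genes of mouse back skin were followed across the control, IMQ and LYS groups. Members were the genes of the deposited table whose symbol starts with Lce or Sprr followed by a digit, together with Flg, Flg2, Hrnr, Rptn, Ivl, Lor, Crnn, Kprp and Crct1, which gave 47 of 29205 genes. They comprised 21 Lce genes (14 Lce1, 6 Lce3 and 1 Lce6), 17 Sprr genes (2 Sprr1, 13 Sprr2, 1 Sprr3 and 1 Sprr4) and the 9 single genes. In the GENCODE M21 annotation of GRCm38 all 47 genes lay on chromosome 3, between Lor and Rptn (chr3:92080271-93399442), and the span of the complex held every one of them.

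The mice were male BALB/c animals aged 6 to 8 weeks, and the back of every animal, controls included, was shaved and depilated. Control mice received no imiquimod (IMQ), a Toll-like receptor agonist whose cream gives psoriasis-like lesions on mouse skin. The IMQ and LYS groups received 62.5 mg of cream containing 5% IMQ by weight each day for 5 days, and the LYS group was also given Longkui Yinxiao Soup (LYS), a herbal decoction, into the stomach from the first day until the day before collection, at the higher of the doses tested. Skin was collected on day 13, and 3 libraries were sequenced per group, 9 in all. The paper speaks of biological replicates, but the labels do not tie a library to an animal, and the p-values measure the spread between these libraries. Whole skin was used, and fewer cells of a type cannot be told apart from less RNA per cell.

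As keratinocytes leave the basal layer and die, they replace the plasma membrane by the cornified envelope, a protein shell. Involucrin, loricrin, the small proline-rich (Sprr) proteins and the late cornified envelope (Lce) proteins are cross-linked into it by transglutaminases. Filaggrin bundles keratin and is later cut into amino acids that hold water in the stratum corneum. The fused S100 genes encode filaggrin and related proteins. Sprr2 and Lce3 genes are known as genes of wounded or inflamed epidermis, and most Lce1 genes as genes of resting epidermis.

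The libraries held 14658645 to 19609878 counts on genes. Levels are given as CPM, counts scaled to library size with the TMM method, and as FPKM where genes are compared, since FPKM is per length. The 47 genes took 0.244%, 0.181% and 0.332% of the counts in control 1, 2 and 3. They took 2.45%, 3.47% and 3.52% in IMQ 1, 2 and 3, and 1.99%, 1.63% and 1.27% in LYS 1, 2 and 3. The 3 groups did not overlap, with means of 0.252% ± 0.0759 (control), 3.15% ± 0.601 (IMQ) and 1.63% ± 0.362 (LYS; SD, n = 3).

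The families that supplied these counts differed between the groups. In the control group 34.5% ± 2.98 of the counts on the 47 genes came from Lor, Ivl, Kprp and Crct1, 30.8% ± 0.690 from the fused S100 genes Flg, Flg2, Hrnr, Rptn and Crnn, and 22.7% ± 2.19 from Lce1 genes (SD, n = 3). Sprr2 genes gave 0.762% ± 0.156 and Lce3 genes 0.368% ± 0.0502 of them. In the IMQ group Sprr2 genes gave 32.5% ± 5.44 and Lce3 genes 6.41% ± 0.944, while Lce1 genes gave 8.76% ± 2.23 and the fused S100 genes 17.2% ± 0.994. The LYS libraries kept a Sprr2 share of 33.7% on average, but it ran from 19.8% in LYS 3 to 45.3% in LYS 2. The make-up of the 47 genes thus had Sprr2 and Lce3 genes as minor parts in every control library and as larger parts in every IMQ and LYS library.

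**Figure D1:**
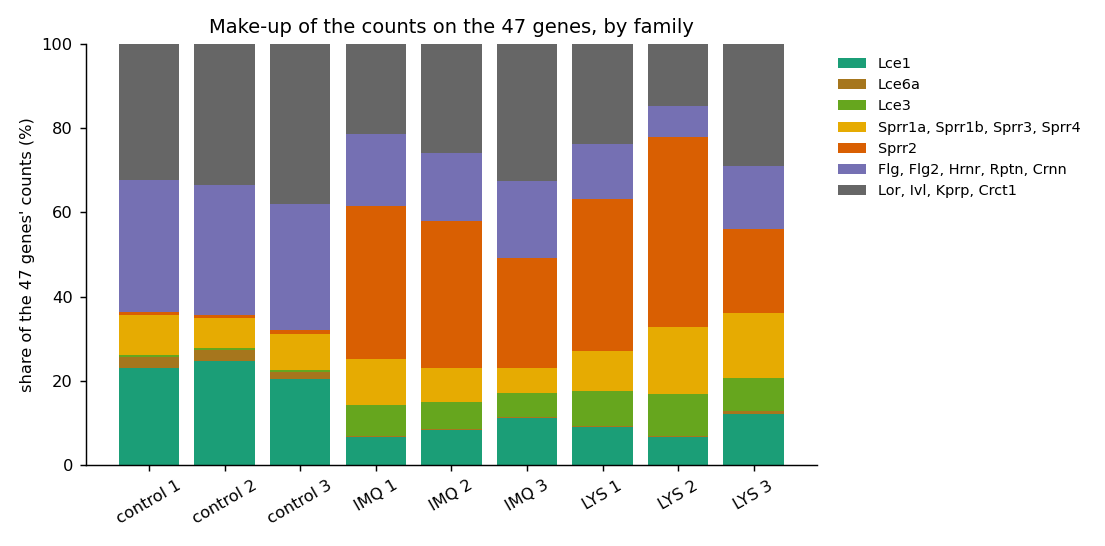
Stacked bars give the share of the counts on the 47 genes (%, y axis) that each family took in each of the 9 libraries (x axis). Sprr2 genes took 0.639% to 0.937% in the control libraries, 26.3% to 36.3% in the IMQ libraries and 19.8% to 45.3% in the LYS libraries.

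Per length, the leading genes also differed. In the control group the highest FPKM were those of Lor (287 ± 118), which encodes loricrin, the major envelope protein, Crct1 (270 ± 112), Sprr1a (196 ± 82.8), Lce1a1 (148 ± 32.2), Sprr4 (114 ± 28.9) and Lce1m (107 ± 28.7; SD, n = 3). In the IMQ group Sprr2d (5996 ± 1048) and Sprr2b (3371 ± 510) stood beside Lor (3108 ± 1302), and Sprr4 and Lce1m were at 64.3 ± 9.58 and 57.6 ± 29.5. In the LYS group Sprr2d (3212 ± 1619), Sprr1a (1503 ± 284) and Sprr2b (1417 ± 829) were the highest.

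Compared with the control group, the IMQ group had higher levels of most of the 47 genes. The test was edgeR's quasi-likelihood test over all genes, and a DEG had to pass an adjusted p of 0.05 (Benjamini-Hochberg) and to differ by more than 0.58 on the log2 scale. Of 47 genes, 44 passed the filter on low counts, 40 were DEGs that rose and 2, Flg2 and Crnn, were DEGs that fell. Over all genes tested, 24.1% rose and 26.9% fell. The log2 fold changes of the 44 genes had a median of 3.70 and ran from -3.30 to 11.58, beside a median of -0.06 over all genes tested. Several Sprr2 and Lce3 genes passed the filter only because they are high in the IMQ libraries, so the count among tested genes is a description. Of the genes left out by the filter, Sprr3 and Sprr2a2 had no count in any control library and Sprr2c-ps had 1.

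The Sprr2 genes, most of which encode small proline-rich envelope proteins, were near 0 in the control group, and Sprr2d and Sprr2b had the highest FPKM of the 47 in the IMQ group. In the annotation Sprr2c-ps is a processed pseudogene and Sprr2g a polymorphic pseudogene. Sprr2j-ps has a pseudogene symbol but is annotated as protein-coding. Sprr2d had 4.25, 4.34 and 11.98 CPM in the control libraries, 3901, 6203 and 4685 CPM in the IMQ libraries and 2842, 2714 and 833 CPM in the LYS libraries. Sprr2b had 0.338, 0.323 and 2.43 CPM in the control libraries, 2466, 3870 and 3241 CPM in the IMQ libraries and 1588, 1340 and 332 CPM in the LYS libraries. For both genes the 3 groups did not overlap, and LYS 3 was the lowest LYS library. Their log2 fold changes in the IMQ group were 9.47 ± 0.585 and 11.58 ± 0.81 (SE, adjusted p = 1.77e-05 and 2.63e-05, edgeR), the second being the largest of the 44. All 11 tested Sprr2 genes rose. Sprr2a3 had the smallest log2 fold change among them, 7.72 ± 0.40 (SE, adjusted p = 9.45e-06, edgeR), with 4.69, 1.76 and 2.00 CPM in the control libraries against 527, 617 and 643 CPM in the IMQ libraries and 385, 251 and 140 CPM in the LYS libraries.

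Some Sprr2 genes had no or almost no counts in the control group. Sprr2a1 had 0 counts in the 3 control libraries and 504 in the 3 IMQ libraries, at least 82.2-fold higher against a floor of 3 counts in each control library. Sprr2k had 2 counts in the control libraries and 1991 in the IMQ libraries, a ratio of 1438 with a 95% counting interval of 397 to 11879.8. Sprr2j-ps had 3 and 4624 counts, a ratio of 2226 with an interval of 761 to 10798, and these intervals cover counting error only. Sprr2a1 was also set to its bound, and Sprr2k and Sprr2j-ps to the lower ends of their intervals, in place of their fitted values. The median log2 fold change of the tested Sprr2 genes was then 9.47 instead of 10.08. Reads of near-identical genes are uncertain: 96.3% of the 50-base windows of the Sprr2a1 transcripts, 96.5% of those of Sprr2a2 and 61.1% of those of Sprr2a3 also occur in transcripts of another gene. For the other 10 Sprr2 genes the share ran from 0% to 14.1%.

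RefSeq promoters (GRCm38.p6, 250 bases before to 50 bases after the start site) matched 41 of the 47 genes. Crct1, Kprp, Lce1f, Sprr2g, Sprr2j-ps and Sprr2c-ps had no entry. Positions are counted from the start site at 0. The windows below were chosen because 7 Sprr2 genes share the letters TGANTCA, the core of AP-1 sites, at nearly the same distance from the start. Each window is 30 bases of the plus strand, and capitals mark TGANTCA.
Sprr2b: aaaaggactctTGAGTCAcaagactcaacc
Sprr2d: attgagtgctcacTGAGTCAcaggtctcaa
Sprr2e: agtgagtgctcacTGAGTCAcaggtctcaa
Sprr2f: actgaatatTGAGTCAcagtgctcaacaat
Sprr2h: atggtctcTGAGTCActgcactttacccag
Sprr2i: cagaagggctcacTGAGTCAcaggactgaa
Sprr2k: gaatgtcctcTGAGTCActgtacttgactc
These windows lie at chr3:92316499-92316528, chr3:92338934-92338963, chr3:92351937-92351966, chr3:92364981-92365010, chr3:92385479-92385508, chr3:92407785-92407814 and chr3:92432376-92432405, all upstream of the annotated genes. The match began at -195 in Sprr2b, -193 in Sprr2d, Sprr2e and Sprr2i, -197 in Sprr2f, -198 in Sprr2h and -196 in Sprr2k, and each of these reads TGAGTCA. Sprr2k holds another TGANTCA at -182, which runs past the end of its window and is not marked. The same 7 promoters hold TATAAA at -29. These positions are counted from the RefSeq start sites. In GENCODE M21 Sprr2b begins further upstream, at chr3:92316620, so its positions depend on the start site used. TGANTCA, which reads the same on both strands, was found in 15 of 41 member promoters (36.6%) and in 7.81% of all 32851 promoters of the table. TATAAA on the gene strand between -40 and -20 was found in 16 of 41 (39.0%) and in 1.99% of all. Both together were found in 12 of 41 (29.3%) and in 0.28% of all.

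These letters were unevenly spread over the families. TGANTCA was found in 7 of 10 Sprr2 promoters and 4 of 5 fused S100 promoters, and in 0 of 13 Lce1 and 0 of 6 Lce3 promoters. Lce1d and Lce1m were the Lce genes with TATAAA in that window. Lce3 genes rose beside the Sprr2 genes without TGANTCA in the 300 bases, which says only that these letters are not in this window. At least 2 copies of GGAA, the core of Ets sites, on either strand were found in 39 of 41 member promoters and in 84.6% of all. CACCC, the core of Klf sites, was found on either strand in 21 of 41 (51.2%) and in 57.5% of all.

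The 6 Lce3 genes, which encode late envelope proteins, all rose in the IMQ group. Lce3b had 0.241, 0.370 and 0.292 CPM in the control libraries, 365, 539 and 456 CPM in the IMQ libraries and 361, 321 and 162 CPM in the LYS libraries. All IMQ and LYS values were far above the control values, and LYS 1 was close to IMQ 1. Under IMQ its log2 fold change was 10.51 ± 0.27 (SE, adjusted p = 8.82e-07, edgeR), the largest of the 6. Lce3c, which had the highest mean FPKM of the 6 over the 9 libraries, had the smallest, 6.97 ± 0.33 (SE, adjusted p = 8.26e-06, edgeR). It had 5.22, 2.36 and 4.24 CPM in the control libraries, 398, 575 and 522 CPM in the IMQ libraries and 332, 308 and 204 CPM in the LYS libraries, so the 3 groups did not overlap. Between 12.1% and 49.3% of the 50-base windows of an Lce3 gene also occur in another gene, so counts may be split among the Lce3 genes.

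The Lce1 genes were expressed in control skin and rose by less. Of the 14 Lce1 genes, 13 rose, and over the 14 the median log2 fold change was 2.92. Lce1a1, the most abundant per length, had 89.1, 75.1 and 107 CPM in the control libraries, 360, 729 and 987 CPM in the IMQ libraries and 384, 190 and 264 CPM in the LYS libraries. Lce1e had the largest log2 fold change of the 14, 3.73 ± 0.35 (SE, adjusted p = 8.46e-05, edgeR), with 21.7, 17.6 and 27.1 CPM in the control libraries, 161, 322 and 408 CPM in the IMQ libraries and 169, 92.9 and 120 CPM in the LYS libraries. For both genes IMQ 1 was the lowest IMQ library and LYS 1 was above it. The 13 genes share 9.12% to 27.1% of their 50-base windows with other genes.

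Lce1m was the exception. It had 82.4, 70.7 and 110 CPM in the control libraries, 34.1, 59.7 and 106 CPM in the IMQ libraries and 30.9, 10.1 and 26.6 CPM in the LYS libraries. The control and IMQ values overlapped, and the log2 fold change was -0.41 ± 0.37 (SE, adjusted p = 0.362, edgeR). Without IMQ 3, the highest IMQ library, Lce1m was a DEG that fell, with a log2 fold change of -0.89. None of the 50-base windows of Lce1m occurs in another gene. It lies apart from the other Lce1 genes, 2.12 kb from Crct1, which encodes a cysteine-rich C-terminal protein of the same complex and rose to 2122 ± 706 from 184 ± 69.4 CPM (SD, n = 3).

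Lce6a, at 58.9, 44.0 and 48.3 CPM in the control libraries, 54.2, 109 and 159 CPM in the IMQ libraries and 48.1, 35.5 and 67.7 CPM in the LYS libraries, was called higher in the IMQ group with a log2 fold change of 1.08 ± 0.34 (SE, adjusted p = 0.0231, edgeR). IMQ 1 lay within the control values, and the call was lost without IMQ 2 (adjusted p = 0.0569), without IMQ 3 (0.0650), without control 2 (0.0769), without control 3 (0.0656) and with library totals as the only scaling (0.115).

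**Figure D2:**
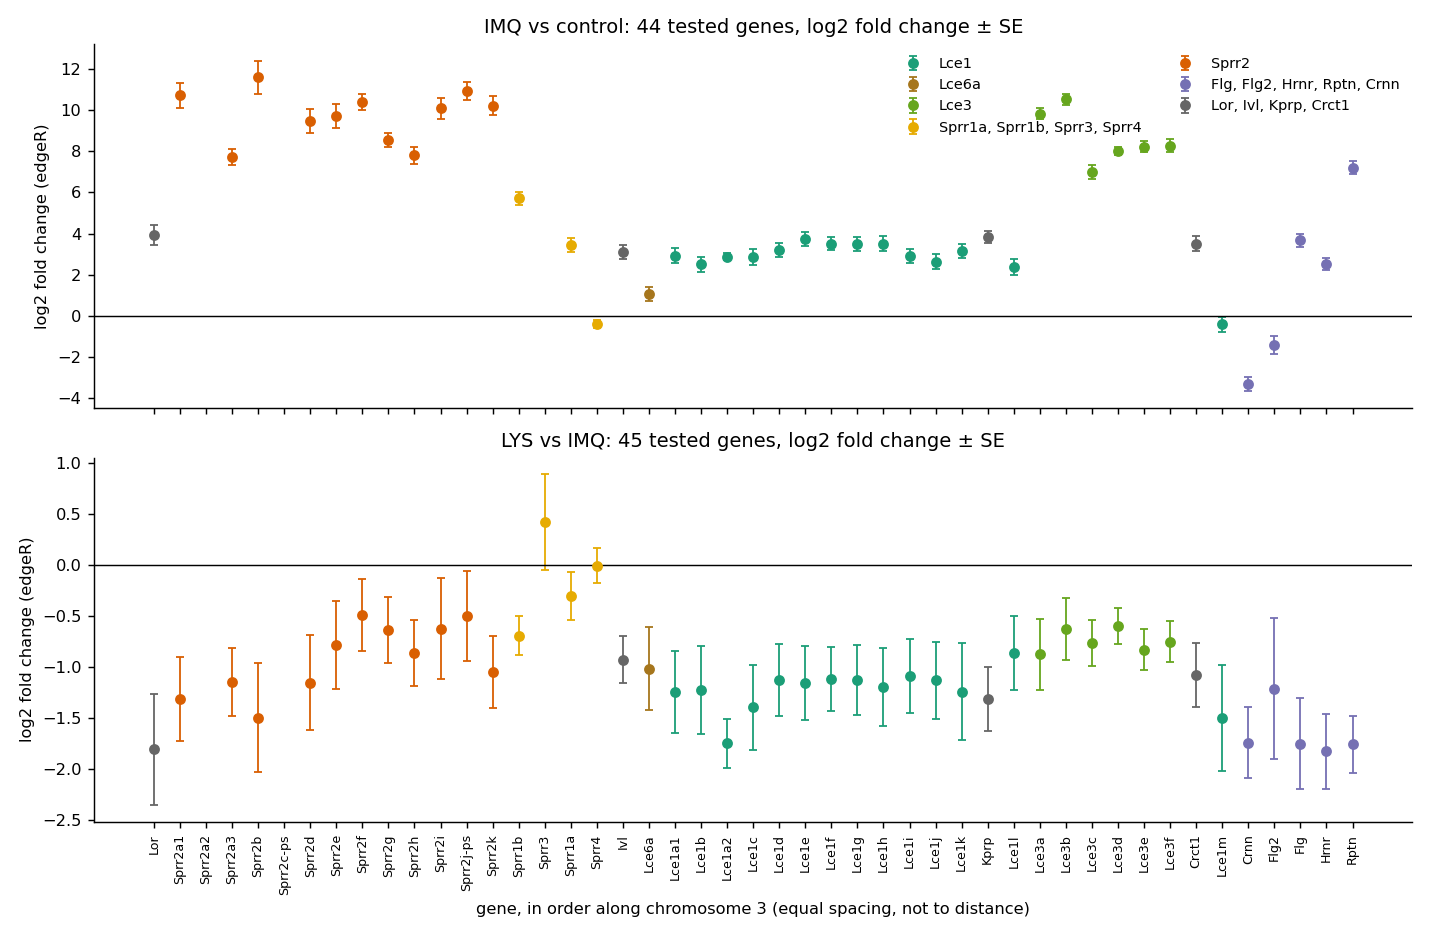
Points give the edgeR log2 fold change of each tested gene (y axis, bars: SE, 3 libraries per group), with the 47 genes in their order along chromosome 3 at equal spacing (x axis). The upper panel has 40 DEGs above 0 with Sprr2b at 11.58 and Crnn at -3.30 as the extremes, and the lower panel has 44 of 45 genes below 0, of which none is a DEG.

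The remaining Sprr genes followed no single course. Sprr1a and Sprr1b encode proline-rich envelope precursors. Sprr1a had 143, 81.1 and 186 CPM in the control libraries, 1468, 1854 and 1187 CPM in the IMQ libraries and 1087, 1395 and 997 CPM in the LYS libraries, and its log2 fold change under IMQ was 3.45 ± 0.34 (SE, adjusted p = 9.98e-05, edgeR). Sprr1b had 32.8, 17.8 and 34.8 CPM in the control libraries, 1418, 1689 and 1384 CPM in the IMQ libraries and 844, 1036 and 775 CPM in the LYS libraries, with a log2 fold change of 5.71 ± 0.31 (SE, adjusted p = 1.15e-05, edgeR). The IMQ and LYS values overlapped for Sprr1a and did not for Sprr1b. Sprr4 had 29.6, 18.8 and 20.7 CPM in the control libraries, 19.0, 17.5 and 16.6 CPM in the IMQ libraries and 18.7, 13.5 and 18.3 CPM in the LYS libraries, and was not a DEG (log2 fold change -0.39 ± 0.19, SE, adjusted p = 0.107, edgeR). With library totals as the only scaling, Sprr4 was called lower in the IMQ group. Sprr3, a gene of internal squamous epithelia, had 0 counts in the control libraries and 32 in the 3 IMQ libraries, at least 4.98-fold higher against the floor of 3 counts in each control library.

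Lor, Ivl, Kprp and Crct1 rose together. Lor had 363, 331 and 628 CPM in the control libraries, 3351, 7416 and 9497 CPM in the IMQ libraries and 2769, 818 and 1948 CPM in the LYS libraries. Ivl, which encodes involucrin, an early scaffold of the envelope, had 87.4, 41.8 and 86.0 CPM in the control libraries, 427, 633 and 773 CPM in the IMQ libraries and 339, 273 and 309 CPM in the LYS libraries. For both genes the 3 groups did not overlap, and the log2 fold changes in the IMQ group were 3.93 ± 0.47 and 3.08 ± 0.34 (SE, adjusted p = 0.000254 and 0.00017, edgeR). Kprp, which encodes a keratinocyte proline-rich protein, had 65.98, 53.3 and 78.1 CPM in the control libraries, 591, 1003 and 1242 CPM in the IMQ libraries and 478, 302 and 311 CPM in the LYS libraries. Crct1 had 171, 122 and 259 CPM in the control libraries, 1331, 2345 and 2689 CPM in the IMQ libraries and 1243, 868 and 772 CPM in the LYS libraries. These 2 genes had log2 fold changes of 3.83 ± 0.31 and 3.51 ± 0.37 (SE, adjusted p = 4.25e-05 and 0.00015, edgeR), again with 3 groups that did not overlap.

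**Figure D3:**
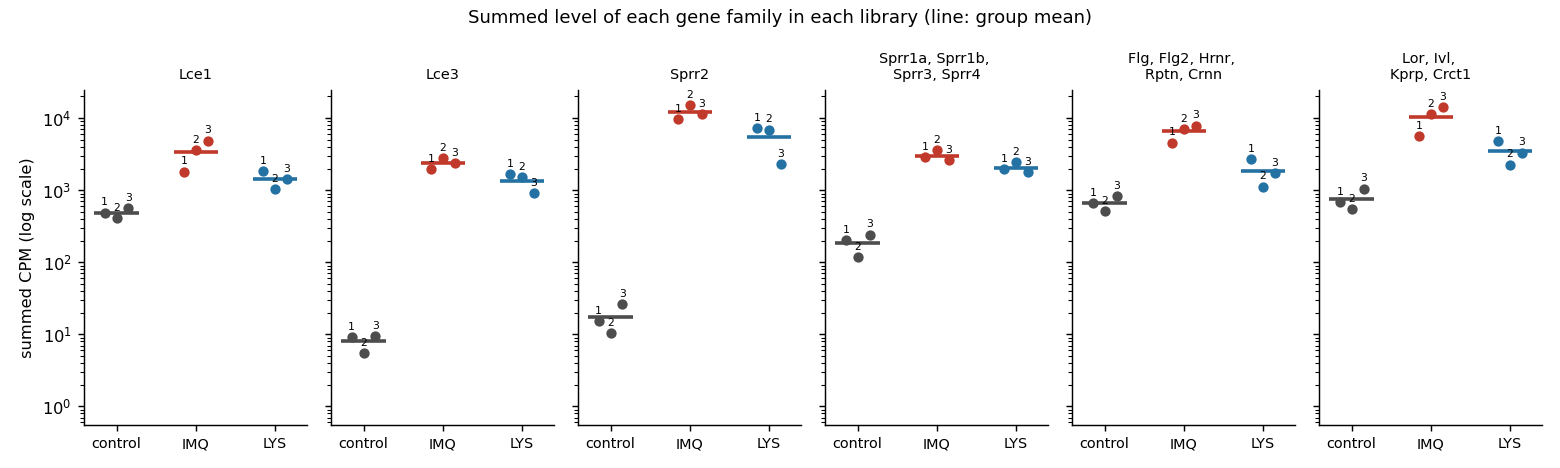
Points give the summed CPM of each gene family in each library (y axis, log scale), numbered by library, and lines give the group mean (n = 3). Sprr2 genes summed to 10.5 to 26.0 CPM in the control libraries and 9737 to 15311 CPM in the IMQ libraries, and in the LYS group LYS 3 was the lowest for Sprr2 and Lce3 while LYS 2 was the lowest for Lce1 and for the fused S100 genes.

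The 5 fused S100 genes divided by direction. Flg, which encodes profilaggrin (chr3:93273523-93293686, plus strand), had 187, 194 and 251 CPM in the control libraries, 1753, 2822 and 3550 CPM in the IMQ libraries and 1216, 398 and 697 CPM in the LYS libraries. Its neighbour Flg2, which encodes a filaggrin-like protein (chr3:93197278-93221391), had 222, 132 and 267 CPM in the control libraries, 38.0, 63.9 and 135 CPM in the IMQ libraries and 50.5, 7.85 and 39.3 CPM in the LYS libraries. Flg thus rose 12.9-fold in mean CPM while the mean CPM of Flg2 was 2.63-fold lower, although the genes are 52.1 kb apart. The log2 fold changes were 3.67 ± 0.31 for Flg (SE, adjusted p = 4.90e-05, edgeR) and -1.40 ± 0.45 for Flg2 (SE, adjusted p = 0.0252, edgeR). The fall of Flg2 was the weaker call: IMQ 3 lay just above control 2, and it was not a DEG without control 1 (adjusted p = 0.0665), without control 3 (0.0775), without IMQ 2 (0.0888) or with all 9 libraries in the fit (0.0812).

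Crnn, which encodes cornulin (chr3:93144787-93149819), fell most of the 47 genes. It had 43.5, 19.96 and 42.5 CPM in the control libraries, 2.73, 3.65 and 4.47 CPM in the IMQ libraries and 1.40, 0.791 and 0.917 CPM in the LYS libraries. The 3 groups did not overlap, and the log2 fold change in the IMQ group was -3.30 ± 0.34 (SE, adjusted p = 0.000135, edgeR), 9.76-fold lower in mean CPM. The level in the LYS group was lower still, 1.03 ± 0.319 CPM (SD, n = 3).

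Hrnr and Rptn encode hornerin and repetin. Hrnr had 199, 148 and 249 CPM in the control libraries, 726, 1281 and 1429 CPM in the IMQ libraries and 430, 187 and 308 CPM in the LYS libraries, so that only the IMQ values stood apart from the control values. Rptn had 16.2, 13.8 and 22.7 CPM in the control libraries, 2076, 2929 and 2792 CPM in the IMQ libraries and 988, 531 and 684 CPM in the LYS libraries, and the 3 groups did not overlap. The log2 fold changes in the IMQ group were 2.52 ± 0.30 for Hrnr (SE, adjusted p = 0.000268, edgeR) and 7.198 ± 0.313 for Rptn (SE, adjusted p = 5.99e-06, edgeR), 148-fold in mean CPM for Rptn.

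The upstream letters of 4 of the 5 fused S100 genes are shown because these 4 hold TGANTCA and include genes that rose and genes that fell. Hrnr, which rose, holds TATAAA at -31 and no TGANTCA and is not shown. Each window runs from -120 to -24 on the plus strand, and capitals mark TGANTCA and TATAAA between -40 and -20.
Flg: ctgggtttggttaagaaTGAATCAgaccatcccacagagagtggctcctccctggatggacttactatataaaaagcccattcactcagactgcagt
Flg2: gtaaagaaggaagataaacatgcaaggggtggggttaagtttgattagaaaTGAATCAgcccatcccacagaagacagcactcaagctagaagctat
Crnn: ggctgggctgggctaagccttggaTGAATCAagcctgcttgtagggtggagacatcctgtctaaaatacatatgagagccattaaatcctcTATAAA
Rptn: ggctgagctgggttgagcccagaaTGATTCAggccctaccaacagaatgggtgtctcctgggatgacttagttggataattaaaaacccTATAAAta
The windows lie at chr3:93273426-93273522, chr3:93197153-93197249, chr3:93144669-93144765 and chr3:93393579-93393675. TGANTCA began at -103 in Flg, -69 in Flg2, and -96 in Crnn and Rptn. Crnn, which fell, and Rptn, which rose, hold TGANTCA at the same position, and TATAAA at -29 and -31. Flg and Flg2 hold no TATAAA between -40 and -20. The Flg window does hold TATAAA, left in lower case, upstream of -40. In GENCODE M21 Flg begins at chr3:93273523, the base after this window ends. Whether this TATAAA falls between -40 and -20 therefore depends on the start site used. How alike the promoters are beyond these letters was not measured.

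**Figure D4:**
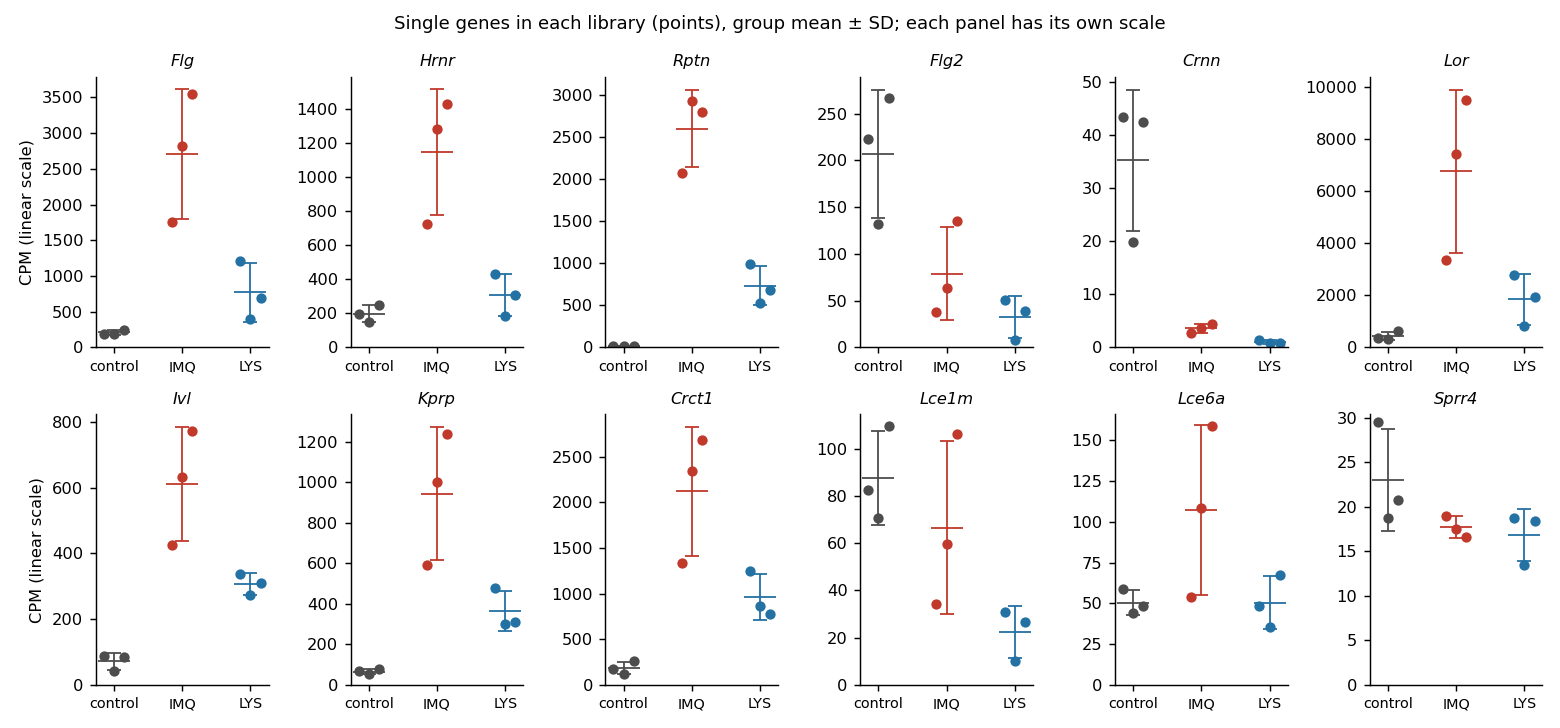
Points give CPM in each library (y axis, linear scale, each panel with its own range) for 12 genes, with the group mean ± SD (n = 3). The control, IMQ and LYS means are 35.3, 3.62 and 1.03 CPM for Crnn and 207, 78.9 and 32.6 CPM for Flg2, while Flg, Hrnr, Rptn, Lor, Ivl, Kprp and Crct1 are highest in the IMQ group.

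The comparison of the LYS group with the IMQ group asked whether LYS changed these genes in IMQ-treated skin. Levels of 44 of 45 tested genes were lower in the LYS group, with Sprr3 as the exception, and the median log2 fold change was -1.12 beside 0.04 over all genes tested. With edgeR no gene of the 47 was a DEG, and neither was any of the 15460 genes tested (0%); the smallest adjusted p was 0.0591. Before adjustment, at p under 0.05, 35 of 45 genes were lower, against 15.9% of all genes tested. The values of the IMQ and LYS groups did not overlap for 28 of 45 genes, all lower, against 22.1% of all. At an adjusted p under 0.1, 28 of 45 genes were lower by more than the fold threshold, against 8.57% of all.

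The call depended on the tool and on single libraries. DESeq2 called 33 genes lower, against 9.49% of all, and none higher. With edgeR, 24 genes were called lower with all 9 libraries in the fit (8.62% of all), 25 without the filter on low counts (3.53% of all), 22 without LYS 1 (11.9% of all) and 23 without IMQ 1 (5.03% of all), and none without each of the other 4 libraries. LYS 1 was the highest LYS library for 34 of the 45 genes with enough counts, and IMQ 1 the lowest IMQ library for 37 of 45. Of the genes called without LYS 1 and without IMQ 1, 17 were called in both.

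The genes with the largest differences were Hrnr, Lor, Rptn, Flg, Lce1a2 and Crnn, whereas Flg2 was not among them. Hrnr differed by -1.83 ± 0.37, Rptn by -1.76 ± 0.28, Flg by -1.75 ± 0.45 and Crnn by -1.74 ± 0.35 on the log2 scale (SE, adjusted p = 0.0591, 0.0591, 0.0617 and 0.0591, edgeR), and IMQ and LYS values did not overlap for any of these. In mean CPM this was 3.71-fold for Hrnr, 3.54-fold for Rptn, 3.52-fold for Flg and 3.50-fold for Crnn. Lce1a2 differed by -1.75 ± 0.24 (SE, adjusted p = 0.0591, edgeR), 3.52-fold in mean CPM. Lor differed by -1.81 ± 0.55 (SE, adjusted p = 0.0759, edgeR) and Kprp by -1.32 ± 0.31 (SE, adjusted p = 0.0598, edgeR). Flg2, with overlapping values, differed by -1.21 ± 0.69 (SE, adjusted p = 0.246, edgeR). DESeq2 called 4 of the 5 fused S100 genes and all of Lor, Ivl, Kprp and Crct1 lower, and not Flg2.

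Differences were smaller for the Lce3 and Sprr families. Over the 14 Lce1 genes the log2 fold changes ran from -1.75 to -0.87 with a median of -1.18. Over the 6 Lce3 genes they ran from -0.88 to -0.60 with a median of -0.76, and the values of the IMQ and LYS groups did not overlap for any of the 6. Over the 11 tested Sprr2 genes they ran from -1.499 to -0.49 with a median of -0.86. Sprr1a differed by -0.31 ± 0.23 (SE, adjusted p = 0.374, edgeR) and Sprr1b by -0.69 ± 0.19 (SE, adjusted p = 0.0660, edgeR). Whether the families differ from each other in this respect was not tested.

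The LYS libraries also differed among themselves by family. LYS 3 was the lowest for all 11 Sprr2 genes with enough counts and all 6 Lce3 genes. LYS 2 was the lowest for 13 of 14 Lce1 genes and for all 5 fused S100 genes. Summed Sprr2 CPM were 7325, 6958 and 2283 in LYS 1, 2 and 3, whereas summed fused S100 CPM were 2687, 1125 and 1729.

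The comparison of the LYS group with the control group asked how far the levels under LYS stood from those of control skin, and it shares the control libraries with the first comparison. Of 45 tested genes, 39 were DEGs that rose, against 15.1% of all genes tested, and 3 were DEGs that fell, Lce1m, Flg2 and Crnn, against 12.9% of all. Lce6a, Sprr4 and Hrnr were not DEGs. The median log2 fold change was 2.47 beside -0.01 over all genes tested. Sprr3 and several Sprr2 and Lce3 genes passed the filter only because they are high in the LYS libraries, so these counts and this median are a description. Side by side, the log2 fold changes in the IMQ and LYS groups against the same controls were 9.47 and 8.29 for Sprr2d, 10.51 and 9.84 for Lce3b, 3.67 and 1.88 for Flg, 2.52 and 0.64 for Hrnr, 3.93 and 2.07 for Lor, -3.30 and -5.10 for Crnn, -1.40 and -2.66 for Flg2, and -0.41 and -1.96 for Lce1m. Hrnr, at 309 ± 122 CPM in the LYS group and 199 ± 50.7 in the control group (SD, n = 3), overlapped between these groups (adjusted p = 0.166, edgeR). Without control 1, Flg, Flg2 and Lor were not DEGs here (adjusted p = 0.0533, 0.0541 and 0.0690, edgeR), and neither was Lor without control 2 (adjusted p = 0.0637, edgeR).

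Keratinocyte markers and markers of other cells also differed between the groups. Summed CPM of the 47 genes per summed CPM of Krt5 and Krt14, the basal keratins, were 1.19 ± 0.0871 (control), 3.74 ± 1.25 (IMQ) and 1.84 ± 0.221 (LYS; SD, n = 3). Per Krt1 and Krt10, the suprabasal keratins, they were 0.579 ± 0.103, 1.22 ± 0.0709 and 1.56 ± 0.364, so the LYS group was below the IMQ group with basal keratins as reference and not below it with suprabasal keratins. Krt1 was at 2020.2 ± 642, 18919.7 ± 3874 and 6663 ± 3021 CPM in the control, IMQ and LYS groups, and Krt10 at 1848 ± 713, 12263 ± 3750.3 and 3815 ± 1059.8 CPM (SD, n = 3). These keratins belong to the cells that express the 47 genes, and their part in the differences was not tested.

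Fibroblast, adipocyte, muscle and hair follicle markers were lower in the IMQ group than in the control group, and the summed fibroblast, adipocyte and muscle markers had higher means in the LYS group than in the IMQ group, which the hair follicle markers did not. Summed CPM of 8 fibroblast markers ran from 22166 to 28265 (control), 3411 to 10787 (IMQ) and 9295 to 18019 (LYS), and 7 of 8 fell in the IMQ group. The highest IMQ value was that of IMQ 1 and the lowest LYS value that of LYS 1. Summed CPM of 8 adipocyte markers were 4691 to 11701, 406 to 1625 and 1402 to 3599, with 8 of 8 falling in the IMQ group, and those of 11 muscle markers were 11633 to 12922, 2150 to 5428 and 5272 to 10058, with 9 of 11 falling. Summed CPM of 14 hair follicle markers were 2201 to 4434, 7.35 to 8.34 and 3.44 to 9.98, with 14 of 14 falling. Summed CPM of 8 sebaceous gland markers were 5033 to 15254, 579 to 1603 and 1447 to 2137, and those of 8 endothelial markers 424 to 614, 172 to 341 and 343 to 656, with 7 of 8 falling in the IMQ group in each list. Macrophage markers summed to 1541 to 2473, 1516 to 1784 and 2262 to 4411 CPM, and T cell markers to 13.1 to 17.2, 14.5 to 27.6 and 33.6 to 45.5 CPM. The neutrophil list, which contains S100a8 and S100a9, summed to 39.3 to 90.2, 21101 to 28664 and 5829 to 17308 CPM. S100a8 and S100a9, with IMQ means of 11936 and 13800 CPM, made up most of the IMQ mean of 26027 CPM. Of 7 tested genes of this list, 5 rose and 1, Mpo, fell in the IMQ group. In the LYS group 5 were lower and 2 higher than in the IMQ group, none of them a DEG with edgeR. No list had a gene at 0 in all 9 libraries, and the part of these cells in the differences of the 47 genes was not tested.

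Other genes of the same chromosome 3 region moved in both directions. Of 19 listed genes (S100 genes, trichohyalin genes, peptidoglycan recognition genes, Lelp1 and Smcp), 15 were tested in the IMQ and control groups, 8 rose and 6 fell. S100a8 and S100a9 encode the calprotectin subunits, made by both keratinocytes and neutrophils. S100a9 rose by 9.75 ± 0.75 and S100a8 by 9.60 ± 0.93 on the log2 scale (SE, adjusted p = 3.73e-05 and 9.70e-05, edgeR), to 13800.1 ± 2472 and 11936 ± 1705 CPM (SD, n = 3). S100a3, a hair cuticle gene, fell to 0.173 ± 0.188 from 23.9 ± 16.3 CPM (log2 fold change -7.15, adjusted p = 0.000222, edgeR).

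Cross-linking enzymes and other envelope partners rose with the 47 genes: of 21 listed genes 20 rose and 1, Krt2, fell. Tgm1 and Tgm3 encode transglutaminases that join envelope proteins. Tgm1 was at 36.4 ± 11.2, 468 ± 111 and 231 ± 109 CPM and Tgm3 at 30.2 ± 7.17, 865 ± 46.7 and 394 ± 135 CPM in the control, IMQ and LYS groups (SD, n = 3), with log2 fold changes in the IMQ group of 3.67 and 4.83 (adjusted p = 3.73e-05 and 7.58e-06, edgeR). Cnfn, which encodes cornifelin, rose by 5.51 (adjusted p = 1.77e-05, edgeR). Krt2, a keratin of the upper epidermis, fell (adjusted p = 2.02e-05, edgeR). It had 1315 counts in the control libraries and 3 in the IMQ libraries, 1 in each, a ratio of 304 with a 95% counting interval of 104 to 1474.

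Genes of profilaggrin processing and of desquamation, mostly enzymes with a few protease inhibitors, rose in most cases: of 20 listed genes 17 rose and 2 fell. Klk14, a kallikrein protease, rose by 9.07, Klk6 by 5.86 and Casp14, which encodes the caspase that takes part in filaggrin breakdown, by 5.19 on the log2 scale (adjusted p = 1.37e-05, 9.14e-06 and 9.14e-06, edgeR). Klk14 had only 0.0483, 0.416 and 0.0487 CPM in the control libraries, so the size of its fold change rests on very few control counts. Padi3, which encodes a peptidylarginine deiminase, fell by 6.42 on the log2 scale (adjusted p = 4.09e-05, edgeR), to 0.574 ± 0.412 from 49.4 ± 20.2 CPM (SD, n = 3). Of 31 transcriptional regulators with known roles in keratinocytes, 26 rose and 1 fell. Ehf and Elf3, epithelial Ets factors, rose by 4.54 and 4.36, and Grhl3 by 3.84 (adjusted p = 1.07e-05, 3.06e-05 and 3.03e-05, edgeR). Klf4 rose by 2.03 (adjusted p = 7.13e-05, edgeR), from 255 ± 26.8 to 1045 ± 187 CPM, and was at 511 ± 96.3 CPM in the LYS group (SD, n = 3).

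In the comparison of the LYS and IMQ groups none of these listed genes was a DEG with edgeR. Of the tested genes, 20 of 20 envelope partners, 19 of 20 filaggrin processing genes and 26 of 31 transcriptional regulators were lower in the LYS group, and 19, 14 and 14 of them at an unadjusted p under 0.05. At that p, 0, 1 and 3 genes of these lists were higher in the LYS group, and 15.9% of all genes tested were lower. DESeq2 called 19, 14 and 12 genes of these lists lower and 0, 0 and 3 higher, against 9.49% of all called lower. The list medians of the log2 fold change were -1.16, -1.12 and -0.64, beside 0.04 over all genes tested. The other listed genes of the chromosome 3 region were mixed: of 14 tested, 10 were lower and 4 higher, with a median of -0.50. At an unadjusted p under 0.05, 2 of the 14 were lower and 3 higher, and DESeq2 called 1 lower and 1 higher. For 6 basal keratinocyte genes, of which 5 rose and 1 fell in the IMQ group (Krt14 rose by 3.07, Krt5 by 1.60 and Col17a1 by 1.47 on the log2 scale; adjusted p = 6.94e-05, 0.000558 and 0.000779, edgeR), the median was -0.20, and for 4 stress keratins, all of which rose in the IMQ group (Krt6b by 7.45, Krt16 by 6.98 and Krt6a by 6.19 on the log2 scale; adjusted p = 4.65e-05, 2.87e-05 and 3.91e-05, edgeR), it was -0.36. Krt14 was at 7579.6 ± 827 CPM in the IMQ group and 6284 ± 1960.02 CPM in the LYS group (SD, n = 3; adjusted p = 0.641, edgeR).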

How the data were processed

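RNA-seq of back skin from 9 mouse libraries, 3 per group, was analysed. Per the labels, libraries were made with the NEBNext Ultra RNA kit, and the submitters' processing notes name HISAT2, HTSeq 0.13.5 and GRCm38. The authors deposited raw read counts per gene for each library. The authors also deposited FPKM values per gene, used here to compare genes per length. Whether counting used strand, and how it treated reads shared by near-identical genes, is not given in the sources used here, so overlapping and antisense genes cannot be told apart.

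Counts were tested with edgeR 4.0.16 (quasi-likelihood, TMM scaling, filterByExpr filter) in R 4.3.3, with the 2 groups of a comparison in each fit. Before that, the code was run on simulated counts drawn with edgeR's own fitted dispersions. Such a run cannot show whether the model suits these data. A DEG had a Benjamini-Hochberg adjusted p under 0.05 over all genes tested and an absolute log2 fold change over 0.58. DESeq2 1.42.0, other scalings, no filter, all 9 libraries in 1 fit, a replicate block and each library left out were alternatives. The 9 single genes and, per subfamily, the tested genes with the highest mean FPKM and with the largest and smallest log2 fold change in IMQ against control have values in every library. In each list of EDC, envelope, filaggrin processing, regulator, basal and stress keratin genes the 3 genes with the largest absolute log2 fold change are named, plus Tgm1, Krt1, Krt10, Krt5, Krt14, Casp14, Klf4 and S100a8. The members and the lists were chosen with earlier results of these data known. Depth was 14658645 to 19609878 counts per library, and floors of 3 counts and 95% intervals cover counting error only.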

Additional observations from a re-analysis of the deposited data

How the results depend on the processing

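The comparison of the LYS and IMQ groups depended on the processing. Against 0 genes called lower of the 47, DESeq2 called 33, edgeR without the filter on low counts 25, with all 9 libraries in the fit 24 and at an adjusted p under 0.1 28. With 1 library left out the count ran from 0 to 23, and genes called higher from 0 to 0. In the IMQ against control comparison 1 gene was called lower with all 9 libraries in the fit, and with 1 library left out 39 to 40 were called higher and 1 to 3 lower. In LYS against control these counts were 35 to 39 and 2 to 3. Median log2 fold changes with 1 library left out ran from 3.53 to 3.99 (IMQ against control), -1.34 to -0.85 (LYS against IMQ) and 2.23 to 2.70 (LYS against control). Sprr4 in LYS against IMQ turned to 0.24 with library totals only and ran from -0.0897 to 0.13 with 1 library left out. Lce6a in LYS against control, near 0, was -0.00178 with DESeq2, -0.13 with library totals only and -0.26 to 0.21 with 1 library left out. Library totals only moved the median of all genes tested to -0.51, 0.29 and -0.15 in the 3 comparisons. As FPKM the 47 genes took 0.586%, 7.24% and 4.76% in the control, IMQ and LYS groups, and as counts, with 1 library left out, 0.213% to 0.288%, 2.96% to 3.49% and 1.45% to 1.81%. The ratio to Krt5 and Krt14, which in CPM was 1.19, 3.74 and 1.84, was 1.78, 6.87 and 3.83 in FPKM. With 1 library left out, an alternative chosen after seeing the data, the CPM ratio to Krt5 and Krt14 ran from 1.16 to 1.24, 3.38 to 4.46 and 1.72 to 1.92. The ratio to Krt1 and Krt10 was 0.579, 1.22 and 1.56 in CPM and 1.29, 3.76 and 5.52 in FPKM. The cause was not tested.

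With the replicate block, 40 genes were called higher and 2 lower in IMQ against control, 0 in LYS against IMQ, and 39 higher and 3 lower in LYS against control. It changed no call among the 21 genes with values in every library, though Lce6a in LYS against control turned to -0.0343. Correlations of deviations from the group mean were also taken between libraries. For same-numbered libraries they were 0.00936, -0.0572 and 0.200 (IMQ and control), -0.460, 0.0787 and -0.404 (LYS and IMQ) and -0.122, 0.0191 and -0.376 (LYS and control). For differently numbered libraries they ran from -0.217 to 0.218, -0.237 to 0.470 and -0.295 to 0.373. Deviations of 3 libraries from their mean sum to 0, so these correlations cannot decide whether the numbers pair the libraries.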
